A study of Homo sapiens with 8 samples.

Results

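The subject is 1780 genomic regions with called H3K23su, the succinylation of lysine 23 of histone H3, in parental HCT15 colorectal cancer cells. No library of their 5-FU-resistant derivative had an H3K23su peak there. In neither line did a called peak of H3K27ac, the acetylation of lysine 27 of the same histone, overlap these regions. They were chosen by merging the overlapping or touching peaks of the 4 H3K23su peak lists into 122500 regions and keeping the autosomal regions with a peak in both HCT15-Pa lists and in neither HCT15-FR list. A kept region also had to overlap no peak of the 4 H3K27ac lists and to have its midpoint over 1 kb from every transcription start site (TSS) of a protein-coding gene. They are called lost regions here for brevity, although a region without a peak was only not detectable at the authors' threshold and may still carry the mark. The rule left 6143 regions called in HCT15-Pa alone, then 6000 on autosomes, then 5547 distal ones, and then the 1780 lost regions.

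HCT15 is an established human colorectal cancer cell line. HCT15-Pa is the parental line, labelled as treated with the solvent DMSO, and HCT15-FR is a line made resistant to 5-fluorouracil (5-FU), a pyrimidine analog that disturbs DNA and RNA synthesis, and is labelled with 20 μg/mL 5-FU. By the methods of the study HCT15-FR cells spent 3 days in drug-free medium before experiments, and a single resistant line was compared with its parent, so the resistance and the history of this line cannot be told apart. Each mark was profiled in each line by CUT&Tag, in which an antibody directs a transposase to the chromatin that carries the mark, in 2 libraries, 8 libraries in all.

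As background, histone lysine succinylation adds a negatively charged acyl group from succinyl-CoA, and like acetylation it has been tied to open, transcribed chromatin. H3K27ac, written mainly by p300 and CBP, marks active promoters and enhancers. A distal H3K23su region without H3K27ac therefore lacks the mark that is most often used to call an active enhancer.

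The sequences of 5 lost regions are shown so that the text can refer back to what such regions look like. They are one of the strongest and, for each of 4 transcription factor families, a strong other one that held a match to the motif of that family. Each is a stretch of the hg19 forward strand, centred on the midpoint for the first and on the match for the others, with the match in capitals. The first lies in an intron of UGGT2, a sensor of misfolded glycoproteins (chr13:96602422-96602622), and its 1 RUNX match is left in lower case. The others show AP-1 in an intron of SNTG2 (chr2:985642-985842), TEAD in an intron of ARHGEF7 (chr13:111862850-111863050) and CTCF in an intergenic region 601454 bp from the nearest protein-coding TSS, that of CWH43 (chr4:49590150-49590350). The last shows KLF in an intron of CLEC16A (chr16:11109020-11109220). The CTCF and KLF matches stand on the reverse strand, so their capitals read as the reverse complement of the motif.
UGGT2 intron: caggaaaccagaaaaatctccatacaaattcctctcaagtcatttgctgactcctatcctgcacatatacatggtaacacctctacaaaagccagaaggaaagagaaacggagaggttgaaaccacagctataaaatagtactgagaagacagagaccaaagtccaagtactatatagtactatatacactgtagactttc
SNTG2 intron, AP-1: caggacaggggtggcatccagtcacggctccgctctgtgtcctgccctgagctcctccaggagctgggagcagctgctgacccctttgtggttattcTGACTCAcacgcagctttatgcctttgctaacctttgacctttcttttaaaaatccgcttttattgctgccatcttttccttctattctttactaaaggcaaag
ARHGEF7 intron, TEAD: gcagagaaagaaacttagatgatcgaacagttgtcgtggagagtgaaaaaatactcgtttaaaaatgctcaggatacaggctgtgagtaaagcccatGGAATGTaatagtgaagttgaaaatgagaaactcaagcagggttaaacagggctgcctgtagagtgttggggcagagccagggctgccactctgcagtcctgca
Intergenic, CTCF: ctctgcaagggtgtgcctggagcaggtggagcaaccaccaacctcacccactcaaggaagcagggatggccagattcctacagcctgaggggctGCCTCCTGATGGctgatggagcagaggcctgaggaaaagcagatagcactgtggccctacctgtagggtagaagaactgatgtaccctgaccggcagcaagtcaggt
CLEC16A intron, KLF: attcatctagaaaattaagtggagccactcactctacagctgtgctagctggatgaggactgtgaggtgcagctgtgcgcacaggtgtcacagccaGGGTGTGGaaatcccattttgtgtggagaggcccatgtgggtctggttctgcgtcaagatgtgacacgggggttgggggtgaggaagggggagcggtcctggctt

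All 8 lists were used. The H3K23su lists held 66134 and 65364 peaks in HCT15-Pa and 68365 and 67827 in HCT15-FR, and the H3K27ac lists held 70600 to 76676. The lists give no read counts, so the depth behind a peak is unknown here. Labels number the libraries as replicates without saying whether they came from separate cultures, so p-values measure only the spread between these libraries, which may be technical.

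The lost regions are one corner of a large set of H3K23su regions that stood away from promoters and had no H3K27ac. This set, called the distal H3K27ac-free regions below, counted 42224 autosomal regions, of which 33674 (79.8%) had a peak in 1 library. The lost regions were 4.22% of it, and 1600 regions (3.79%) showed the opposite pattern, a peak in both HCT15-FR lists and in neither HCT15-Pa list. Among all 120091 autosomal H3K23su regions, 5.00% were called in HCT15-Pa alone and 7.95% in HCT15-FR alone. H3K27ac was thus missing from 32.1% of the distal regions called in HCT15-Pa alone (exact 95% binomial interval 30.9 to 33.3%) and from 18.1% of those called in HCT15-FR alone (17.3 to 19.0%). It was missing from 3.19% of the 18505 distal regions called in all 4 libraries, which leaves 590 constant regions without H3K27ac. The lists that chose the regions set all these shares, which are a description. Intervals cover counting error over regions only.

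Counted by peak and by library, the distal H3K23su peaks without H3K27ac numbered 15762 and 15321 in HCT15-Pa and 12983 and 12847 in HCT15-FR. Relative to all autosomal H3K23su peaks of a library, this was 24.3% and 23.9% in HCT15-Pa and 19.4% and 19.3% in HCT15-FR. Both HCT15-Pa libraries lay above both HCT15-FR libraries on both measures. The difference, HCT15-FR minus HCT15-Pa, was -2626.5 peaks, with means of 15541.5 ± 311.8 and 12915 ± 96.2 (SD, n = 2 each, exact permutation test, two-sided, p = 0.3333). With 2 libraries against 2 this test cannot give a p below 0.3333. These peaks include those that chose the lost regions and come from the same lists. The difference is therefore a description and no separate support for the losses.

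Replicates of 1 line shared few distal H3K27ac-free regions. Of the 14903 such regions of the first HCT15-Pa library, 3222 were also in the second, which is 21.6% of the first and 22.3% of the 14460 of the second. The HCT15-FR libraries shared 3067, or 25.1% and 25.4% of theirs. A HCT15-Pa and a HCT15-FR library shared between 2148 and 2211 regions, which was 14.4 to 14.9% of the HCT15-Pa library and 17.6 to 18.1% of the HCT15-FR library. The overlap between replicates was larger than that between lines for each pair of libraries, and most regions of this kind were found in 1 library. Without the first HCT15-Pa H3K23su library 11459 regions would count as lost, and without the second 11863, since a call in 1 library is then enough.

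The peaks that chose the lost regions were weak by the measure of all H3K23su peaks. They were somewhat stronger than those of the distal H3K27ac-free regions, most of which were called in 1 library. They were weaker than those of the constant regions in the same HCT15-Pa libraries. The score of a peak is the authors' −log10 of its P value, and its percentile is its rank within its own list. Scores ran from 3.08 to 8.02 with a median of 3.98 in the first HCT15-Pa library and from 3.08 to 8.50 with a median of 3.97 in the second, where the medians over all autosomal regions with a peak were 4.37 and 4.38 and those over the distal H3K27ac-free regions 3.87 and 3.85. The median percentile was 34.4 and 33.6, beside 28.7 and 27.8 over the distal H3K27ac-free regions in these libraries and 29.1 and 28.2 for the gained regions in the HCT15-FR libraries. For the constant regions without H3K27ac it was 43.3 and 41.5 in the HCT15-Pa libraries, with median scores of 4.18 and 4.15. The weaker peak had a median percentile of 20.0 in the lost and 17.3 in the gained regions. In 185 of the 1780 regions (10.4%) both peaks stood in the upper 50% of their lists. The scores of a region in both HCT15-Pa libraries were only weakly associated. Across the 1780 regions, which are not independent replicates, Pearson's r between the libraries was 0.12 and Spearman's rho 0.11, and across the 590 constant regions they were 0.07 and 0.10.

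**Figure D1:**
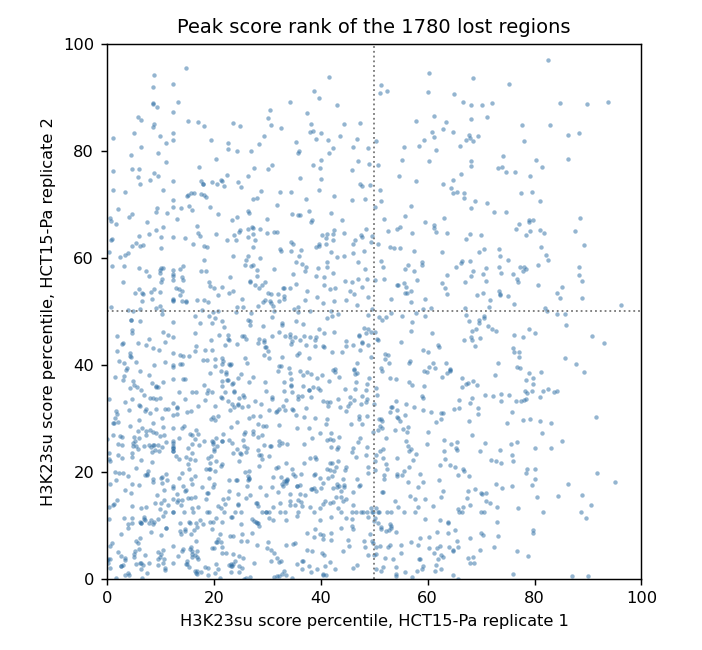
Percentile of the H3K23su score of each of the 1780 lost regions in the first (x axis) and the second HCT15-Pa library (y axis), 1 point a region, with dotted lines at the 50th percentile. Points crowd the lower left, and 185 regions lie above both lines.

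By the percentile of the weaker peak, the strongest lost region lay in an intron of RNF19A, a ubiquitin ligase, with scores of 7.26 and 6.50. The UGGT2 region printed above came next, with 6.51 and 6.45. The ARHGEF7 region, in a gene for an exchange factor of Rac1 and Cdc42, had scores of 5.95 and 6.46, and a region in KANSL1L had 6.33 and 5.84. The BDNF region, in the gene of a neurotrophin, had 6.09 and 5.81, and a further region 116062 bp from the BDNF start had 5.75 and 8.50. An intergenic region 41791 bp from the start of ID2, an inhibitor of helix-loop-helix transcription factors, had 5.78 and 5.98. The remaining ones of the 10 strongest lay in KAT6A, a histone acetyltransferase gene (6.09 and 5.48), in TTC21B, a gene of ciliary transport (5.59 and 5.46), and 11728 bp from the start of TBC1D3 (5.45 and 5.72). The TBC1D3 copy belongs to a family of near-identical genes, so its reads and its place are uncertain. Within 200 bp of the midpoint of the KAT6A region, 44.8% of 16-base words occur at least 100 times on chromosome 1. For the TBC1D3 region this share was 28.5%. Of the 10 strongest regions, 3 lay on chromosome 2 and 9 were intronic.

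The width of the lost regions had a median of 417 bp and ran from 146 to 1498 bp. The median was 251 bp over all distal H3K27ac-free regions, most of which rest on 1 peak, 429.5 bp in the gained regions and 415 bp over all autosomal H3K23su regions. It was 696.5 bp in the constant regions and 637 bp in the regions lost together with H3K27ac, described below. The 5 widest lost regions were an intergenic one of 1498 bp on chromosome 22, one of 1451 bp that lay 895817 bp from the start of GPC5, one of 1387 bp in MIPOL1, one of 1369 bp in IL20RB and one of 1320 bp in HUNK.

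The rule has sharp edges, with regions of similar scores on either side of them. The lost region nearest to a start, in KNDC1, lay 1018 bp from it with scores of 5.01 and 3.94, and the nearest excluded one, in KCNH2, lay at 977 bp with scores of 5.94 and 4.24. In all, 69 regions of HCT15-Pa alone without H3K27ac lay within 1 kb of a protein-coding start and were left out. The lost region closest to an H3K27ac peak, 47558 bp from the start of PWWP2B, was 3 bp from it with scores of 4.13 and 3.88. The excluded region with the smallest overlap, in TSNARE1, shared 2 bp with an H3K27ac peak, with scores of 4.63 and 3.77. Of the 1780 lost regions, 98 had an H3K27ac peak within 200 bp, and of the 3767 distal regions that the overlap left out, 41 overlapped by up to 50 bp.

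Most lost regions lay inside genes. By the midpoint, 1324 (74.4%, interval 72.3 to 76.4%) were intronic, 324 (18.2%, 16.4 to 20.1%) intergenic and 132 (7.42%) exonic, the last split into 28 in coding sequence, 31 in untranslated exons and 73 in exons of non-coding transcripts. The median distance to the nearest protein-coding start was 24799.5 bp, with 1314 regions (73.8%) over 10 kb and 267 (15%) over 100 kb away. Another kind of start was closer for some, and 159 (8.93%) lay within 1 kb of a TSS of a transcript outside the protein-coding set. The distal H3K27ac-free regions as a whole were 76.3% intronic and 14.8% intergenic, with a median distance of 22588 bp.

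A second class of losses, distal regions lost together with H3K27ac, was found at other places. It held 929 regions with H3K23su in HCT15-Pa alone and with overlapping H3K27ac regions called in both HCT15-Pa lists and in neither HCT15-FR list. Of these, 53.1% (49.8 to 56.3%) were intronic and 39.1% (35.9 to 42.3%) intergenic, against 74.4% and 18.2% of the lost regions without H3K27ac, with intervals apart for both. Their median distance to a protein-coding start was 42962 bp. Their weaker peak had a median percentile of 39.1, so they were also called from stronger peaks. The gained regions without H3K27ac were 79.9% intronic and 13.1% intergenic (11.5 to 14.9%), and the constant ones 86.6% and 6.27%. The intergenic share of the lost regions lay above those of the gained, constant and all distal H3K27ac-free regions, with intervals that did not overlap. It depended on the settings, and ran from 15.7 to 20.8% over 16 alternatives. The lowest value, 15.7% (50 of 319), came with the stronger 50% of each H3K23su list. The shares of the other classes were not counted again under these alternatives.

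Although no H3K27ac peak touched them, 1734 of the lost regions (97.4%) had one of any library within 50 kb. The nearest stood at a median of 4608 bp, and 348 (19.6%, interval 17.7 to 21.5%) had one within 1 kb and 1269 (71.3%, 69.1 to 73.4%) within 10 kb. Over all distal H3K27ac-free regions the median was 3936 bp, with 25.3% (24.9 to 25.8%) within 1 kb and 76.1% (75.7 to 76.5%) within 10 kb. In the gained regions it was 3866 bp, with 23.8% and 75.9%. The lost regions thus stood farther from H3K27ac than the set they came from, with intervals apart at both distances. This was not particular to losses. The constant regions without H3K27ac stood at a median of 5313.5 bp from the nearest peak. Of them, 21.4% (18.1 to 24.9%) had one within 1 kb and 68.6% (64.7 to 72.4%) within 10 kb. The rule did not use these neighbouring peaks, which can therefore be compared between the lines. Within 5 kb, 33.4% and 35.8% of the lost regions had an H3K27ac peak in HCT15-Pa, and 34.0% and 34.9% had one in HCT15-FR. The HCT15-FR values lay between the HCT15-Pa values, with a difference of -0.17 percentage points (exact permutation test, two-sided, n = 2 each, p = 1).

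At 1 kb and at 10 kb, unlike at 5 kb, the libraries of the 2 lines did not overlap. Within 1 kb, 10.8% and 10.3% of the lost regions had an H3K27ac peak in HCT15-Pa, and 7.75% and 8.48% had one in HCT15-FR, a difference of -2.47 points. Within 10 kb the shares were 53.5% and 54.4% against 51.5% and 52.6%, a difference of -1.91 points. Both HCT15-FR libraries lay below both HCT15-Pa libraries at these distances, and the exact permutation test gave the smallest p it can for n = 2 each, 0.3333 (two-sided). Over all distal H3K27ac-free regions the values ran the other way, with 11.8% and 11.4% in HCT15-Pa and 13.1% and 13.8% in HCT15-FR within 1 kb. Around the gained regions they were 8.44% and 8.94% in HCT15-Pa and 15.4% and 15.6% in HCT15-FR, a difference of 6.81 points. The total number of H3K27ac peaks was higher in HCT15-FR, 73834 and 76676 against 71819 and 70600.

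**Figure D2:**
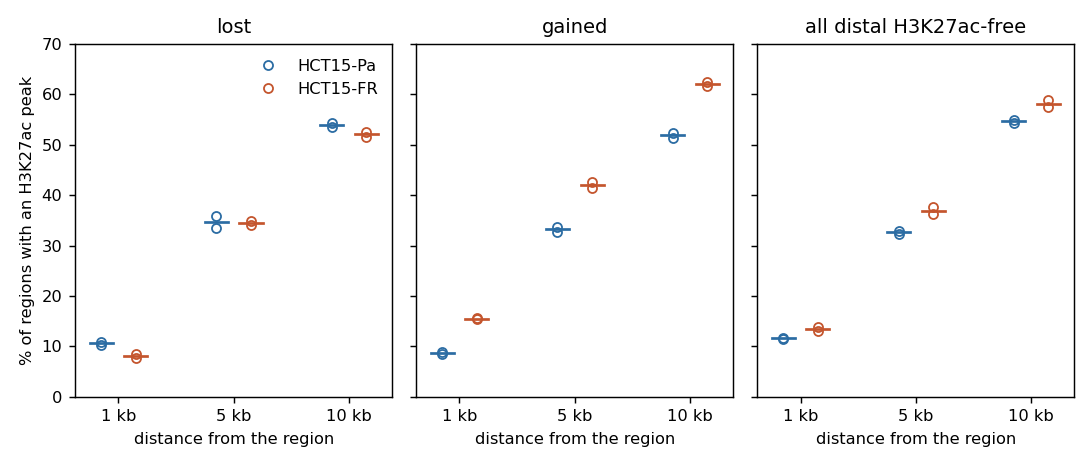
Share of regions with an H3K27ac peak within 1, 5 and 10 kb (y axis, percent), by library, for the lost regions, the gained regions and all distal H3K27ac-free regions. Circles are single libraries and bars the mean of the 2 libraries of a line. Around lost regions HCT15-FR lies below HCT15-Pa at 1 kb (8.12% against 10.6%) and level with it at 5 kb (34.5% against 34.6%), and around gained regions HCT15-FR lies higher, with 42.1% against 33.3% at 5 kb.

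By chromosome, the lost regions were spread in proportion to the distal H3K27ac-free regions, with chromosome 13 apart. On that chromosome 108 of 1405 such regions were lost (7.69%, interval 6.35 to 9.21%), where the other autosomes ran from 3.24% on chromosome 14 to 4.98% on chromosome 10. The gained regions had their lowest share there, with 32 of 1405 (2.28%, 1.56 to 3.20%). The lost regions on chromosome 13 came from most of its length, with 21 between 20 and 30 Mb, 24 between 40 and 50 Mb and 16 from 110 Mb onward. Without chromosome 13, 1672 lost and 1568 gained regions were left among 40819, or 4.10% and 3.84%. Among the stronger 50% of the peaks of each list, 17 of 425 such regions of chromosome 13 were lost (4%), beside 3.04% over all autosomes.

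The share of chromosome 13 was also lower in HCT15-FR for whole libraries and for the other mark. Of the H3K27ac peaks, which did not choose the lost regions by their presence, 3.43% and 3.34% lay there in HCT15-Pa and 2.41% and 2.41% in HCT15-FR, a difference of -0.97 points (exact permutation test, two-sided, n = 2 each, p = 0.3333). For H3K23su the shares were 3.32% and 3.38% against 2.55% and 2.47%. Both HCT15-Pa libraries lay above both HCT15-FR libraries for each mark. A difference between the lines in the DNA of chromosome 13 and one in its chromatin cannot be told apart in peak lists.

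**Figure D3:**
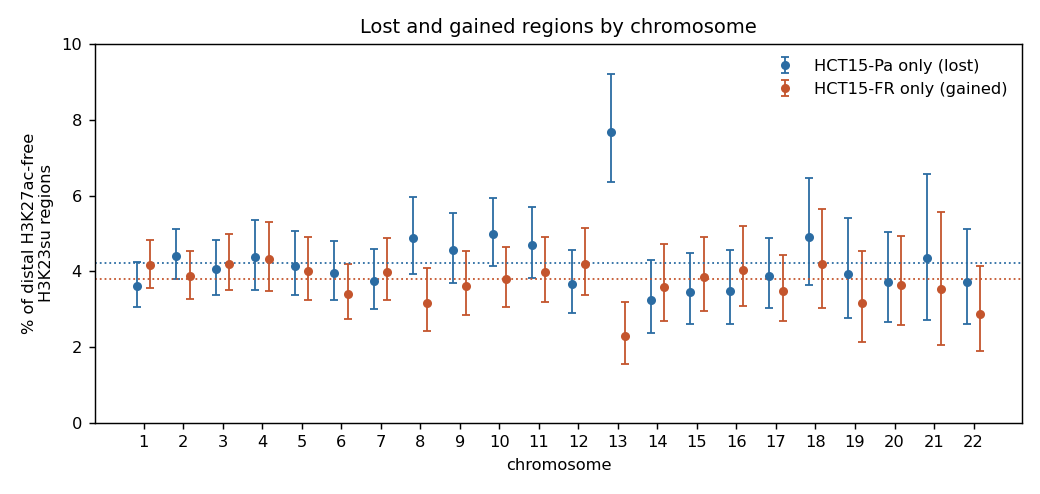
Share of the distal H3K27ac-free H3K23su regions of each autosome (y axis, percent) that were called in HCT15-Pa alone (lost) or in HCT15-FR alone (gained), with exact 95% binomial intervals. Dotted lines give the autosomal shares of 4.22% and 3.79%. On chromosome 13 the lost share is 7.69% and the gained share 2.28%.

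The lost regions held motifs at shares close to those of the distal H3K27ac-free regions. Exact motif matches were counted on both strands in windows that reach 200 bp to either side of the midpoint. The letters were TGACTCA for AP-1, the dimers of Fos and Jun proteins, and GGAATG followed by C or T for TEAD, the partners of YAP1. Forkhead (FOX) factors were read as TGTTTAC and KLF factors as CCACACCC. GATA factors were read as AGATAA, RUNX factors as TGTGGTT and ETS factors as AGGAAGT. For CTCF, the boundary factor, the letters were CCANNAGNNGGC. A match describes the letters and shows no binding.

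AP-1 matches stood in 163 lost regions (9.16%, interval 7.86 to 10.6%), beside 9.07% of all distal H3K27ac-free regions and 12.99% of all autosomal H3K23su regions. The gained regions held them more often, 13.5% (11.9 to 15.3%), as did the regions lost together with H3K27ac, 15.4% (13.1 to 17.9%). TEAD matches stood in 200 lost regions (11.2%, 9.81 to 12.8%), in 12.1% of the gained regions and in 10.7% of the distal H3K27ac-free regions. Of the regions lost together with H3K27ac, 19.3% (16.8 to 22.0%) held one. For both motifs the intervals of the losses with and without H3K27ac did not overlap.

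FOX matches stood in 5.56% of the lost regions (4.54 to 6.73%) and 10.4% of the gained ones (8.98 to 12.0%), with 5.997% over the distal H3K27ac-free regions. GATA matches stood in 17.4% of the lost regions (15.6 to 19.2%) and 22.6% of the gained ones (20.6 to 24.8%), with 17.99% over the distal H3K27ac-free regions. For the remaining motifs too the share of the distal H3K27ac-free regions lay within the interval of the lost ones. Lost regions held KLF in 6.29%, RUNX in 6.74%, ETS in 9.83% and CTCF in 1.69%, and the distal H3K27ac-free regions in 6.42%, 7.53%, 8.85% and 1.89%. For AP-1, FOX and GATA the lost share thus lay below that of the gained regions and close to that of the set they came from.

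**Figure D4:**
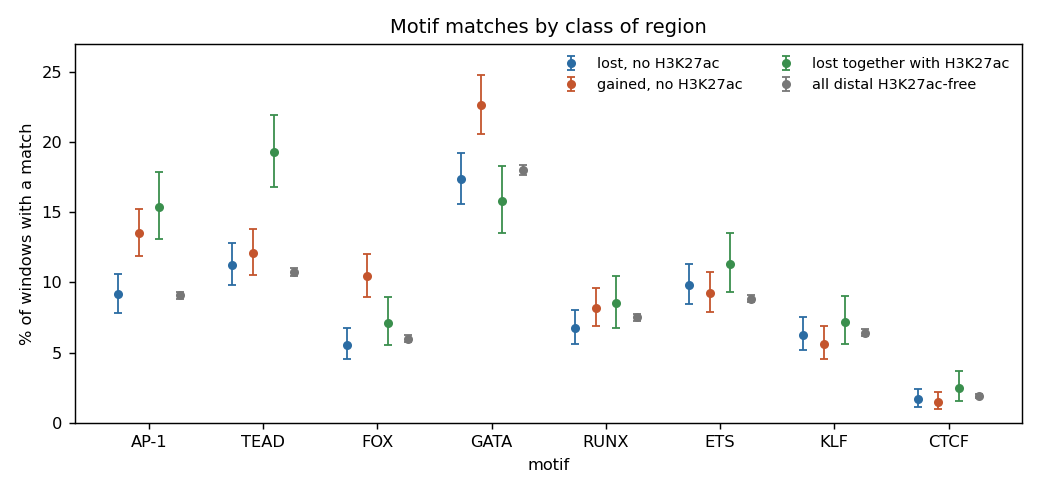
Share of windows around the midpoint with at least 1 exact match (y axis, percent) for 8 motifs in the lost, the gained, the lost-together-with-H3K27ac and all distal H3K27ac-free regions, with exact 95% binomial intervals. Lost regions lie close to all distal H3K27ac-free regions for each motif, and the regions lost together with H3K27ac are highest for TEAD, with 19.3%.

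Base composition set the lost regions between the other classes. The median GC content of the window was 49.6% (quartiles 45.4 and 54.1%) in the lost regions, 46.4% in the gained, 48.1% in the constant and 53.4% in those lost together with H3K27ac, with 48.6% over the distal H3K27ac-free regions. Motifs poor in G and C, such as those of FOX and GATA, are met more often in sequence of lower GC content, and the part of base composition in their shares was not tested.

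Inside protein-coding genes lay 1291 lost regions, in 1188 different host genes. Most hosts held few, with 1053 genes holding 1, 111 holding 2, 19 holding 3 and 5 holding more. CDK8, the kinase of the Mediator complex, held 6 lost regions among its 18 distal H3K27ac-free regions. TENM3, a teneurin of neuronal adhesion, held 5 of 32. PIBF1, a centrosomal protein, held 4 of 18, MLLT3, a reader of histone acylation in the super elongation complex, 4 of 30, and the retinoblastoma tumor suppressor RB1 4 of 15. None of these 5 genes held a gained region without H3K27ac. CDK8, PIBF1 and RB1 lie on chromosome 13.

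The 6 lost regions of CDK8 were all intronic and stood 2457 to 61879 bp from the nearest protein-coding start. Their scores ran from 3.43 to 4.15 in the first HCT15-Pa library and from 3.55 to 4.24 in the second, and their distance to the nearest H3K27ac peak from 4642 to 18908 bp. No score was high, with a weaker peak at the 38.0th percentile at most. Along the whole gene, HCT15-Pa had 14 and 17 peaks of H3K23su where HCT15-FR had 4 and 3. Those of H3K27ac were 4 and 4 against 1 and 4. Here and in the host genes below, the H3K23su counts include the peaks of the lost regions. These genes were named for their lost regions, so a lower H3K23su count in HCT15-FR follows in part from that choice. At the CDK8 promoter the H3K23su score was 13.1 and 11.3 in HCT15-Pa and 12.6 and 11.8 in HCT15-FR. The promoter peak was thus present in each library at a similar score. Inside the gene a few peaks were also called in HCT15-FR, outside the 6 lost regions.

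**Figure D5:**
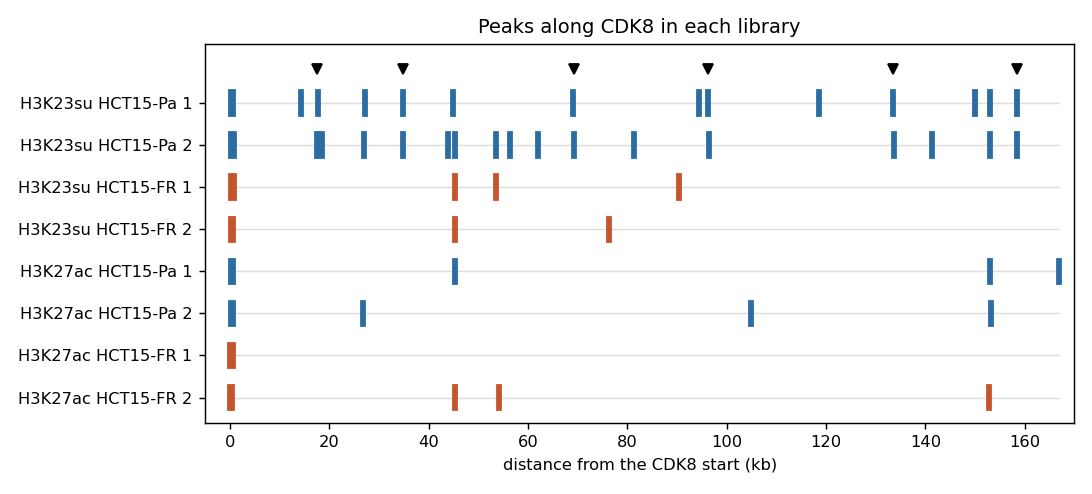
Peaks of both marks along CDK8 in each of the 8 libraries, by distance from its start in kb (x axis), with short peaks widened so that they can be seen. Triangles mark the 6 lost regions. All libraries have a peak of both marks at the start, and inside the gene H3K23su peaks are many in HCT15-Pa and few in HCT15-FR. CDK8 was named for its 6 lost regions, and their HCT15-Pa peaks are among those shown.

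RB1 showed fewer peaks of both marks in HCT15-FR. Its body held 21 and 16 H3K23su peaks in HCT15-Pa against 7 and 6 in HCT15-FR, and 13 and 11 H3K27ac peaks against 5 and 6. Its strongest lost region (chr13:48918516-48918712) had scores of 4.69 and 4.88. UGGT2, which holds 3 lost regions and also lies on chromosome 13, had 19 and 18 H3K23su peaks against 7 and 7 and 9 and 15 H3K27ac peaks against 3 and 3. On this chromosome both marks had fewer peaks in HCT15-FR, as given above.

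Away from chromosome 13, the peak counts of both marks varied between the host genes. TENM3 had 27 and 27 H3K23su peaks in HCT15-Pa and 16 and 22 in HCT15-FR, with 14 and 17 H3K27ac peaks against 12 and 12. MLLT3 had 27 and 26 against 23 and 29, with overlapping H3K27ac counts of 16 and 12 against 16 and 20. CENPE, the mitotic kinesin of the kinetochore, held 3 lost regions and had 11 and 8 H3K23su peaks against 2 and 1, while its H3K27ac peaks were 1 and 2 against 1 and 1. In PAWR, a pro-apoptotic gene with 3 lost regions, H3K23su peaks numbered 7 and 10 against 4 and 6, and H3K27ac peaks 1 and 1 against 5 and 4. TTC21B, QSER1, PDE7A, MAP7, PKP4, TANC1 and, on chromosome 13, TSC22D1 also held 3 each. They were the shorter of the 19 genes that tied at 3, and 9 longer ones, such as RASGRF2, are left out of these counts of peaks. Of all 24 genes with 3 or more lost regions, 23 had a peak of both marks within 1 kb of a start in all 4 libraries of each mark. The exception was RASGRF2, which is described below.

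Lost regions rarely stood side by side. The median distance to the nearest other lost region was 322349.5 bp, and 43 had another within 10 kb and 397 within 100 kb. Linking those within 100 kb gave 8 clusters of 4 or more, with 35 lost regions. The cluster of CDK8 held 6 within 141.4 kb, and that of RB1 with its neighbours ITM2B and LPAR6 held 5 within 215.8 kb. The others held 4 each, in TENM3, TNS3, MLLT3, PIBF1, around NLN and TRIM23, and in MTFR1 and PDE7A.

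The promoters of the host genes were measured apart from the regions. Of 1174 autosomal host genes with a usable start, 1015 (86.5%, interval 84.4 to 88.4%) had H3K27ac within 1 kb of a start in all 4 libraries and 983 (83.7%) had H3K23su there in all 4. For all 18886 autosomal protein-coding genes the shares were 61.1% and 56.9%, and for the 8958 hosts of any distal H3K27ac-free region 80.8% and 77.0%. They were higher for the 1119 hosts of gained regions, with 90.2% (88.3 to 91.9%) and 86.5%. By library, H3K27ac stood at the promoters of 92.0% and 91.7% of the host genes in HCT15-Pa and of 90.0% and 89.3% in HCT15-FR. The HCT15-FR libraries were lower by a small margin, a difference of -2.21 points (exact permutation test, two-sided, n = 2 each, p = 0.3333), beside -1.23 points for all genes. The share of all H3K27ac peaks that fell inside the host genes was 9.96% and 9.98% in HCT15-Pa and 10.0% and 10.0% in HCT15-FR.

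A promoter with H3K27ac in both HCT15-Pa libraries and in neither HCT15-FR library was found in 25 host genes (2.13%), where 2.03% of all genes had one, and the opposite in 5, where 1.30% of all genes had it. For H3K23su the counts were 24 (2.04%, beside 1.56% of all genes) and 12 (beside 1.75%). The share with H3K27ac in HCT15-Pa alone was thus near that of all genes. It was 1.60% in the hosts of all distal H3K27ac-free regions, which lies within the interval of 1.38 to 3.13% of the hosts of lost regions, and 0.447% (5 of 1119, 0.145 to 1.04%) in the hosts of gained regions. In 13 host genes (1.11%, interval 0.59 to 1.89%) both marks were called at the promoter in HCT15-Pa alone, beside 0.694% of all genes, 0.659% of the hosts of distal H3K27ac-free regions and 0 of the 1119 hosts of gained regions. The interval holds the first and second of these shares, and 1 of these 13, RUBCNL, lies on chromosome 13.

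Some of these 13 genes are named here after their values were seen. In CD44, a hyaluronan receptor and a marker of colon stem cells, the lost region was intronic, 2323 bp from a start, with scores of 4.31 and 3.96. The CD44 promoter had H3K27ac scores of 4.12 and 4.43 and H3K23su scores of 3.98 and 5.43 in HCT15-Pa and no peak of either mark in HCT15-FR. In RASGRF2, an exchange factor of Ras and Rac, 3 intronic lost regions had scores between 3.36 and 4.36, and the promoter had H3K27ac scores of 6.53 and 5.79 and H3K23su scores of 7.49 and 6.97 in HCT15-Pa. SETBP1, which binds the SET protein, held 2 lost regions. HUNK, which held one of the widest lost regions, had promoter H3K27ac scores of 4.28 and 5.68 in HCT15-Pa. By the choice of these genes, their promoter peaks were missing from HCT15-FR along with the distal ones.

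Gene lists were counted by the lost regions in the bodies of their genes, beside all distal H3K27ac-free regions there. Over all protein-coding genes 1291 of 32617 (3.96%) were lost. In the TEAD and YAP1 network 3 of 60 were lost (5.00%, interval 1.04 to 13.9%), 1 each in TEAD1, LATS2 and VGLL4. In the Wnt pathway and colon stem cell list 5 of 79 were lost (6.33%, 2.09 to 14.2%), 2 of them in TCF7L2, the transcription factor of Wnt signalling in the gut, and 1 each in TCF7L1, CD44 and EPHB3. Each of these intervals holds the 3.96% of all genes.

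The writers and erasers of histone acylation held 6 of 89 (6.74%, 2.51 to 14.1%). They were 2 in HDAC7, a histone deacetylase, 2 in KAT6B and 1 in KAT6A, both acetyltransferases of H3, and 1 in SIRT5, a desuccinylase. The SIRT5 region had scores between 3.28 and 4.01, and the KAT6A region, among the strongest, had 6.09 and 5.48. Of the intestinal identity genes, HNF4A, a hepatocyte nuclear factor, and CDH17, an intestinal cadherin, held 1 each. Of the genes of 5-FU metabolism, UCK2, a uridine-cytidine kinase, held 1 of 22 in that list (4.55%), with scores between 3.37 and 4.50.

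The long adhesion and synaptic genes held 2 of 93 (2.15%), in PTPRN2 and FHIT. The receptor tyrosine kinases with their ligands held 0 of 51 and the Notch genes 0 of 53, which allows shares of up to 6.98% and 6.72% by the exact interval. For these lists too the interval holds the share of all genes. At the promoters of the list genes with a lost region, H3K27ac was called in all 4 libraries, with the exception of CD44. H3K23su was called in all 4 with the exceptions of CD44, of EPHB3, where 1 HCT15-FR library had it, and of CDH17, where both HCT15-FR libraries and no HCT15-Pa library had it.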

How the data were processed

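The members and gene lists were chosen with earlier results of these data known. H3K23su and H3K27ac were profiled by CUT&Tag in HCT15-Pa and HCT15-FR cells, with 2 libraries per line and mark. Per the methods and labels, the authors aligned reads to hg19 with Bowtie2, kept properly paired, unique and deduplicated reads with SAMtools, and called peaks in each library with MACS2, using broad peak calling for H3K27ac. Deposited were lists of peak positions with the −log10 of the P value and no read counts, so that depth and its precision could not be derived. Scores were ranked within their own list. The peak caller's threshold and any control are not given in the sources used here, and the RPKM classes of the study were not used.

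From these lists, peaks were merged, and an overlap of 1 bp with a peak of a library sufficed for presence. Genes came from GENCODE release 44 mapped to GRCh37, with starts of protein-coding transcripts of protein-coding genes. GC content and motifs were read within 200 bp of the midpoint. Named regions were the 10 with the strongest weaker peak, the 5 widest and those at each threshold. Named genes were the 15 hosts with the most lost regions, with ties settled by the shorter gene, and each list gene with one. Printed sequences come from the strongest members with each motif, leaving out chromosome 8 and regions near untranslated exons. Some results are not reported here. Regions are no replicates, so shares have exact 95% binomial intervals and no test, and tests compare libraries by two-sided exact permutation. Labels gave all groups, and replicate numbers do not say what they pair. Alternatives changed the merging, distance, TSS set, H3K27ac margin, scores, coverage and window, and left out each library. Planted regions and motifs were used to check the classes on simulated data. The tools were samtools 1.23.1 and, in Python 3.11.15, pysam 0.24.0, scipy 1.17.1, pandas 2.3.3, numpy 2.4.6 and matplotlib 3.10.9.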

Additional observations from a re-analysis of the deposited data

How the results depend on the processing

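The number of lost regions depended on the call in both replicates of a line. Leaving out 1 H3K23su or H3K27ac library at a time gave 1904 to 11863 lost regions, 1683 to 9178 gained regions and a lost share of 4.11 to 35.5% of the distal H3K27ac-free regions, with the highest lost counts, 11459 and 11863, without the first and the second HCT15-Pa H3K23su library, and the highest gained counts, 9106 and 9178, without the first and the second HCT15-FR H3K23su library. By construction a line then needs 1 library in place of 2. With the stronger 50% of each H3K23su list, 319 lost and 167 gained regions were left, and the lost share was 3.04%. The lost share was 5.41% with peaks merged within 500 bp, 4.54% with no H3K27ac peak within 1 kb and 3.25% with 50% of a region covered. When H3K27ac was judged on the HCT15-Pa lists alone, an alternative chosen after seeing the data, the counts were 2111 lost and 6215 gained regions and the share 3.55%. Gained regions that carry H3K27ac in HCT15-FR alone enter this count by construction. Of the other alternatives chosen after seeing the data, those without chromosome 13, without high-copy windows and with gene-level 5′ ends gave 1672, 1752 and 1831 lost regions.

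The lost share on chromosome 13 was 4% (17 of 425) with the stronger 50% of each list, 4.56% with 50% of a region covered and 9.97% with merging within 500 bp, where the shares over all autosomes were 3.04%, 3.25% and 5.41%, and the cause was not tested. It was 47.9% and 47.8% without the first and the second HCT15-Pa H3K23su library and 10.4% and 9.58% without the first and the second HCT15-FR one, where the shares over all autosomes were 34.7%, 35.5%, 6.22% and 6.24%. Within 100 bp of the midpoint AP-1, TEAD and CTCF matches stood in 5.17%, 5.96% and 0.90% of the lost windows, which cover fewer bases. The difference in distal H3K23su peaks without H3K27ac, HCT15-FR minus HCT15-Pa, was negative in the 10 alternatives run, from -2847 to -1613.5 peaks, and from -2847 to -2406 without 1 library. As a block by replicate number it stayed at -2626.5 peaks, with an exact sign-flip p of 0.5, the smallest that 2 pairs can give. The labels do not say whether a replicate number marks a pairing of samples. All these alternatives reuse the lists that chose the lost regions, so their shared sign is no separate support.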

Other observations

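Windows reaching 200 bp to either side of the midpoint were scanned for 16-base words that occur at least 100 times on chromosome 1. No such word stood in 64.7% of the lost windows. In 28 of the 1780 (1.57%, exact 95% binomial interval 1.05 to 2.27%) over 50% of the 16-base words of the window were of this kind. These shares were 64.2% and 1.81% in the gained regions, 60.2% and 3.26% over all distal H3K27ac-free regions and 70.2% and 2.07% over all autosomal H3K23su regions. Of the lost regions, 124 (6.97%) lay within 500 kb of an assembly gap, beside 7.22% of all distal H3K27ac-free regions.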
